A study of Homo sapiens with 6 samples.

Results

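The 10 genes described here are the transcription factors and effector genes through which epithelial cells take on, or give up, a mesenchymal state: the repressor genes SNAI1, SNAI2, ZEB1 and ZEB2, the bHLH factor gene TWIST1, the mesenchymal genes CDH2 and VIM, the epithelial surface genes CDH1 and EPCAM, and the splicing regulator gene ESRP1. They were chosen by name, and every probe set annotated to exactly 1 of them was taken. This gave 23 probe sets of 49395 on the array, and 10 genes of 18132. All 10 genes had at least 1 probe set, and no probe set naming a member also named another gene. The arrays compare T24 cells given MAP30 at 10 µg/ml for 48 hours (3 arrays) with control T24 cells (3 arrays), called normal in the labels. T24 is an established line of human bladder carcinoma, and MAP30 is a ribosome-inactivating protein of the bitter melon, Momordica charantia. Both groups grew in the same serum-containing medium, per the labels' protocols, and what the control cells were given in place of MAP30 is not stated there. All arrays come from 1 cell line, and no label says whether replicates were separate cultures, so a p-value measures the spread between these arrays, which may be technical.

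In an epithelial-mesenchymal transition, cells lose the junctions that tie them to their neighbours and gain motility. The repressors of the SNAIL and ZEB families bind E-box sequences and silence CDH1, which encodes E-cadherin, and other epithelial genes, among them EPCAM and ESRP1. A change from E-cadherin to N-cadherin, the product of CDH2, together with vimentin filaments, encoded by VIM, is the usual mark of the mesenchymal state. In bladder carcinoma these genes are used to tell epithelial from mesenchymal lines, and T24 is commonly placed among the mesenchymal ones.

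The deposited log2 values have been centred, so that every probe set has its middle value over the 6 arrays at 0. A value therefore says how far an array lies from that median, and nothing about how strongly a gene is expressed. Whether T24 cells express CDH1, EPCAM or the markers of urothelium at all cannot be read from these values, and levels of different genes cannot be ranked. The centring leaves differences between arrays untouched. Where all arrays of one group lie above all of the other, it places the groups on opposite sides of 0.

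With MAP30, the 4 repressor genes of the SNAIL and ZEB families rose together with EPCAM, while CDH2, VIM and ESRP1 fell. ZEB2 was 2.96-fold higher, SNAI2 2.36-fold, ZEB1 1.98-fold, EPCAM 1.95-fold and SNAI1 1.72-fold. CDH2 was 1.63-fold lower, ESRP1 1.23-fold and VIM 1.1-fold. CDH1 (log2 fold change 0.00) and TWIST1 (0.02) did not pass the test. The repressor genes and EPCAM, an epithelial gene, thus rose together, and both mesenchymal effector genes fell. The calls of VIM and ESRP1, and the absence of one for CDH1 and TWIST1, depended on how the arrays were scaled, as given with each gene.

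A gene counted as called when limma's adjusted p, by Benjamini-Hochberg over all 18132 genes, was under 0.05. Of the 10 genes 5 were called higher, 3 were called lower and 2 were not called. The background is high, since 57.5% of all genes were called, 26.9% as higher and 30.6% as lower. The 3 MAP30 arrays did not overlap the 3 control arrays in 8 of the 10 genes, and in 62.6% of all genes. Among the members 50% were thus called higher and 30% lower. With 10 genes chosen by name, nothing is read from these shares beyond the counts. The log2 fold change was larger in absolute size than that of ZEB2 in only 2.91% of genes, than that of SNAI2 in 5.76%, ZEB1 in 9.77%, EPCAM in 10.3%, SNAI1 in 14.7% and CDH2 in 17.3%. It was larger in 39% of genes than that of ESRP1, in 59% than that of VIM, in 90.1% than that of TWIST1 and in 99.7% than that of CDH1. The median log2 fold change was 0.40 over the 10 genes and -0.02 over all genes.

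**Figure D1:**
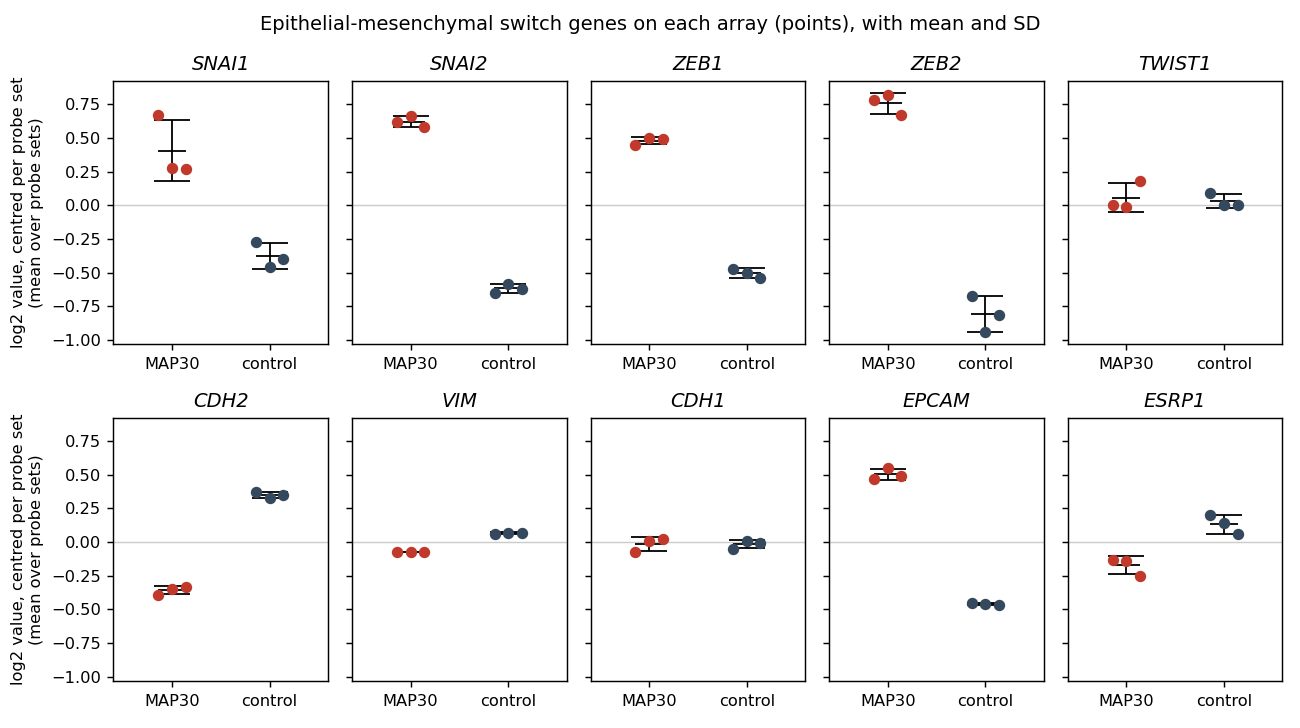
Centred log2 value of each of the 10 genes (mean over its probe sets) on each array, with MAP30 on the left and control on the right of each panel; points are arrays and black bars give the mean and SD of 3. The MAP30 arrays lie above the control arrays for SNAI1, SNAI2, ZEB1, ZEB2 and EPCAM and below them for CDH2, VIM and ESRP1, and the groups overlap for TWIST1 and CDH1.

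Spiked-in controls of different kinds differed between the groups in opposite directions. They therefore do not fix the scale of the arrays, which matters for the smallest changes. Spiked-in hybridization controls were higher on the MAP30 arrays by a mean of 0.21 on the log2 scale over 18 probe sets, although their 4 cre probe sets moved by only 0.00 to 0.09. Spiked-in poly-A controls were lower by a mean of -0.16 over 24 probe sets. With arrays centred on these controls, genes as a whole had a median change of -0.23 (hybridization) and 0.14 (poly-A), and the share of calls that were rises was 21.1% and 70.3%, against 46.8% as deposited. A sign of RNA integrity is the signal of ACTB at its 3' end relative to its 5' end. In centred values it stood on the log2 scale at 0.08 ± 0.01 in MAP30 and -0.08 ± 0.02 in control arrays (SD, n = 3 each; two-sided exact permutation p = 0.1, the smallest that 3 against 3 arrays allow). For GAPDH the same measure stood at 0.02 ± 0.01 in MAP30 and -0.02 ± 0.01 in control arrays (same permutation test, p = 0.1). Centring hides the ratio itself, so only the difference between groups can be read, and not how intact the RNA was. That difference was 0.158 for ACTB and 0.043 for GAPDH. The part of these differences in the results was not tested. Fold changes are on the deposited scale unless another is named.

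SNAI2 encodes SLUG, a zinc finger repressor of CDH1 that also acts in basal epithelial cells. Its single probe set (11744218_at) stood at 0.62, 0.66 and 0.58 on the MAP30 arrays and at -0.65, -0.58 and -0.62 on the control arrays. The arrays of each group lay close together and the groups were far apart, with a log2 fold change of 1.24 ± 0.04 (SE, n = 3 per group; limma adjusted p = 1.24e-07).

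SNAI1 encodes SNAIL, the founding member of that family. Its single probe set (11720513_at) read 0.67, 0.28 and 0.27 with MAP30, against -0.27, -0.46 and -0.40 in control. MAP30 replicate 1 stood well above the other two, and the SD of the MAP30 arrays (0.23) was larger than for any other member, yet no MAP30 array reached down to the control range. The log2 fold change was 0.78 ± 0.11 (SE; limma adjusted p = 0.000504), and 0.65 without MAP30 replicate 1.

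ZEB1 and ZEB2 encode large repressors with zinc finger clusters at both ends that bind paired E-boxes, and both are held down in epithelial cells by the microRNAs of the miR-200 family. ZEB2 had the largest change among the members. As the mean of its probe sets it stood at 0.78, 0.82 and 0.67 with MAP30 and at -0.67, -0.94 and -0.81 in control. The log2 fold change was 1.57 ± 0.07 (SE; limma adjusted p = 8.1e-07). Its 2 probe sets gave 1.5 ± 0.11 (11747942_a_at) and 1.64 ± 0.07 (11756954_s_at), which did not differ from each other by the test of a probe set against the others of its gene (difference 0.14, 95% interval -0.14 to 0.43; limma adjusted p = 0.404).

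ZEB1 stood at 0.45, 0.50 and 0.49 with MAP30 and at -0.47, -0.50 and -0.54 in control, as the mean of 7 probe sets. Both groups were tight, and the log2 fold change was 0.99 ± 0.04 (SE; limma adjusted p = 2.61e-07). All 7 probe sets were called higher, from 0.79 ± 0.06 (11749644_s_at) to 1.30 ± 0.05 (11721546_s_at). The test of each probe set against the others of its gene asks whether those sizes differ, and it is untouched by any shift of a whole array. The probe set 11721546_s_at rose more than the rest of ZEB1 by 0.36 (95% interval 0.24 to 0.49; limma adjusted p = 0.00164), and 11749644_s_at rose less by a difference of -0.23 (-0.38 to -0.09; adjusted p = 0.0223). The second of these calls was lost without MAP30 replicate 1 or 3 or control replicate 2 or 3, with adjusted p of 0.0161 to 0.0734 over the 6 arrays left out in turn. The files do not say which transcripts of ZEB1 each probe set reads. By their suffix, 3 of the 7 belong to class _x_at and 4 to class _s_at, whose probes can match other transcripts too, so cross-hybridization was not tested by the deposited values and no ZEB1 value exists from the more specific classes.

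The promoters of both ZEB genes are shown because they rose together. RefSeq promoter windows (GRCh38.p14), from 250 bases before a transcript start to 50 after it, were searched for 4 of the 10 members. These were ZEB1 with 7 starts, ZEB2 with 1, CDH2 with 2 and VIM with 1. SNAI2 and ESRP1 were left out of the search by their chromosome, and CDH1, EPCAM, SNAI1 and TWIST1 had no window. The E2-box letters CAGGTG, which read CACCTG on the other strand and which SNAIL and ZEB proteins are known to bind, and the related CAGGTA, which reads TACCTG, were searched on both strands. They do not overlap each other. The window of the ZEB1 start at chr10:31318966-31319265 (plus strand) held 3 matches to CAGGTG or CACCTG, the most of the 11 member windows. The other ZEB1 windows held 0 or 1 match of either kind. The only ZEB2 window, at chr2:144520070-144520369 (minus strand), held 0. With 7 windows for ZEB1 and 1 for ZEB2, these numbers do not compare the promoters of the ZEB genes. Capitals mark the matches.
ZEB1: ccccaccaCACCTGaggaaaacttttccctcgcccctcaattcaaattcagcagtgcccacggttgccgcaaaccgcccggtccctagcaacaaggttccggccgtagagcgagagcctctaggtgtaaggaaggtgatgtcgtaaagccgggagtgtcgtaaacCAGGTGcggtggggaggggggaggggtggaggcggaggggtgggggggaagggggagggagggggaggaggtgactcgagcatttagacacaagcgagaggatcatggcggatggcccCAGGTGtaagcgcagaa
ZEB2: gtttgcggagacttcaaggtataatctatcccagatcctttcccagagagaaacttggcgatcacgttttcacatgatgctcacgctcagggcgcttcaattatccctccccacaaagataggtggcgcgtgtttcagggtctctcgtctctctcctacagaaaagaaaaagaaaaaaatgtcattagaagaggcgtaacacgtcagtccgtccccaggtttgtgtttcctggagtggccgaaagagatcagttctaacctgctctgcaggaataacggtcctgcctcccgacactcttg
In the ZEB1 window the matches began 242 and 85 bases before the transcript start and at base 34 after it. Over all 34796 distinct windows of this length, 20.6% held CAGGTG in either orientation, 9.86% held CAGGTA and 28.1% held at least 1 of them. Of the 11 member windows searched, 5 held at least 1, all of them at ZEB1. A match describes letters in a window and not a bound site.

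TWIST1 encodes a bHLH factor that acts beside SNAIL and ZEB proteins in development. Its single probe set (11727666_at) read 0.00, -0.01 and 0.18 with MAP30, against 0.09, 0.00 and 0.00 in control. The groups overlapped, and the log2 fold change was 0.02 ± 0.06 (SE; 95% interval -0.12 to 0.17; limma adjusted p = 0.767). With hybridization-control centring it was -0.18 and with poly-A-control centring 0.19, and it passed the test in both, in opposite directions.

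CDH2 encodes N-cadherin, the adhesion protein of mesenchymal and neural cells. It stood at -0.39, -0.35 and -0.33 with MAP30 and at 0.37, 0.33 and 0.35 in control. Every MAP30 array was below every control array, with a log2 fold change of -0.71 ± 0.03 (SE; limma adjusted p = 1.05e-06). Both probe sets were called lower, 11726614_at at -0.81 ± 0.04 and 11726615_a_at at -0.60 ± 0.05. The first fell further than the second by 0.21 (95% interval 0.07 to 0.36; limma adjusted p = 0.0321), a call that was lost when any array other than MAP30 replicate 1 was left out (adjusted p 0.0164 to 0.0960). The direction of CDH2 was downward under all 15 alternative settings.

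VIM encodes vimentin, the intermediate filament of mesenchymal cells. Its mean was -0.07 on each MAP30 array, against 0.06, 0.07 and 0.07 in control. The spread within groups was small enough for a change of -0.14 ± 0.03 (SE; limma adjusted p = 0.00573) to pass, but in size it lies within the shift of the array controls. With poly-A-control centring VIM turned to 0.03 and did not pass. Its 2 probe sets gave a log2 fold change of -0.14 each. Taken alone, 11731394_a_at lost its call without MAP30 replicate 2 or control replicate 2 or 3, and 11755943_x_at without control replicate 1 or 3.

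The promoters of these 2 mesenchymal genes are given beside those of the ZEB genes because both fell while the repressors rose. For CDH2 the upstream start is shown, at chr18:28177081-28177380 (minus strand), and for VIM the window is chr10:17227991-17228290 (plus strand). Neither held a match to CAGGTG or CAGGTA in either orientation, so no letter is in capitals.
CDH2: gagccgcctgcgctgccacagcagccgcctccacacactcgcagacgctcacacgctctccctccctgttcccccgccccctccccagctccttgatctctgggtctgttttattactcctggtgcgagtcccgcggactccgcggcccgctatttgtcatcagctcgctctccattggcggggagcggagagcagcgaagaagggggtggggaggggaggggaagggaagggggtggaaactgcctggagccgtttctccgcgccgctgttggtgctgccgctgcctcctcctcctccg
VIM: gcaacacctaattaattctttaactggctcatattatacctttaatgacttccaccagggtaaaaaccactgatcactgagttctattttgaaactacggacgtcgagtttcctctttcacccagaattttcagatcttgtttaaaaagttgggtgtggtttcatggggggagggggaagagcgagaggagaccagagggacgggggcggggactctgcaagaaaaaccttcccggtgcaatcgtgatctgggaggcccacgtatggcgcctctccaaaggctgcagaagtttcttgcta
The CDH2 window shown is rich in G and C (67%, against a median of 58.7% over all windows), and the VIM window is less so (48%). The CDH2 window not shown had 40.7%.

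CDH1 encodes E-cadherin, the core protein of epithelial adherens junctions and the textbook target of the SNAIL and ZEB repressors. It read -0.07, 0.01 and 0.02 with MAP30, against -0.05, 0.01 and -0.01 in control. The groups overlapped, with a log2 fold change of 0.00 ± 0.04 (SE; 95% interval -0.09 to 0.09; limma adjusted p = 0.985). The probe sets gave -0.02 ± 0.05 (11716905_a_at) and 0.02 ± 0.08 (11716906_a_at). The interval bounds a change of CDH1 on the deposited scale only. With hybridization-control centring CDH1 was at -0.21 and with poly-A-control centring at 0.16, and both passed. Because its level is unknown here, a transcript at background and a transcript held steady would look alike.

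EPCAM encodes the epithelial cell adhesion molecule, a surface glycoprotein of simple epithelia and carcinomas. It stood at 0.47, 0.55 and 0.49 with MAP30 and at -0.45, -0.46 and -0.47 in control. The groups were far apart, with a log2 fold change of 0.96 ± 0.04 (SE; limma adjusted p = 2.66e-07). All 3 probe sets were called higher, at 1.02 ± 0.06 (11716887_a_at), 1.05 ± 0.05 (11745651_a_at) and 0.82 ± 0.08 (11745652_s_at), and none differed from the others of the gene by the test within genes (adjusted p 0.163 to 0.5). Across array scales the change ran between 0.75 (hybridization controls) and 1.13 (poly-A controls).

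ESRP1 encodes an RNA-binding protein that directs the epithelial splicing of transcripts such as those of FGFR2 and CD44. It read -0.13, -0.14 and -0.25 with MAP30, against 0.20, 0.14 and 0.06 in control. The groups did not overlap, but the gap between the nearest arrays was small beside that of EPCAM. The log2 fold change was -0.30 ± 0.05 (SE; limma adjusted p = 0.00129), with -0.25 ± 0.07 for probe set 11723543_a_at and -0.36 ± 0.08 for 11723544_a_at. With poly-A-control centring it was -0.14 and did not pass (adjusted p = 0.0637). The call of 11723543_a_at alone was lost without MAP30 replicate 2 or 3 or control replicate 1 or 3 (adjusted p 0.00192 to 0.0630 over the 6 arrays).

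**Figure D2:**
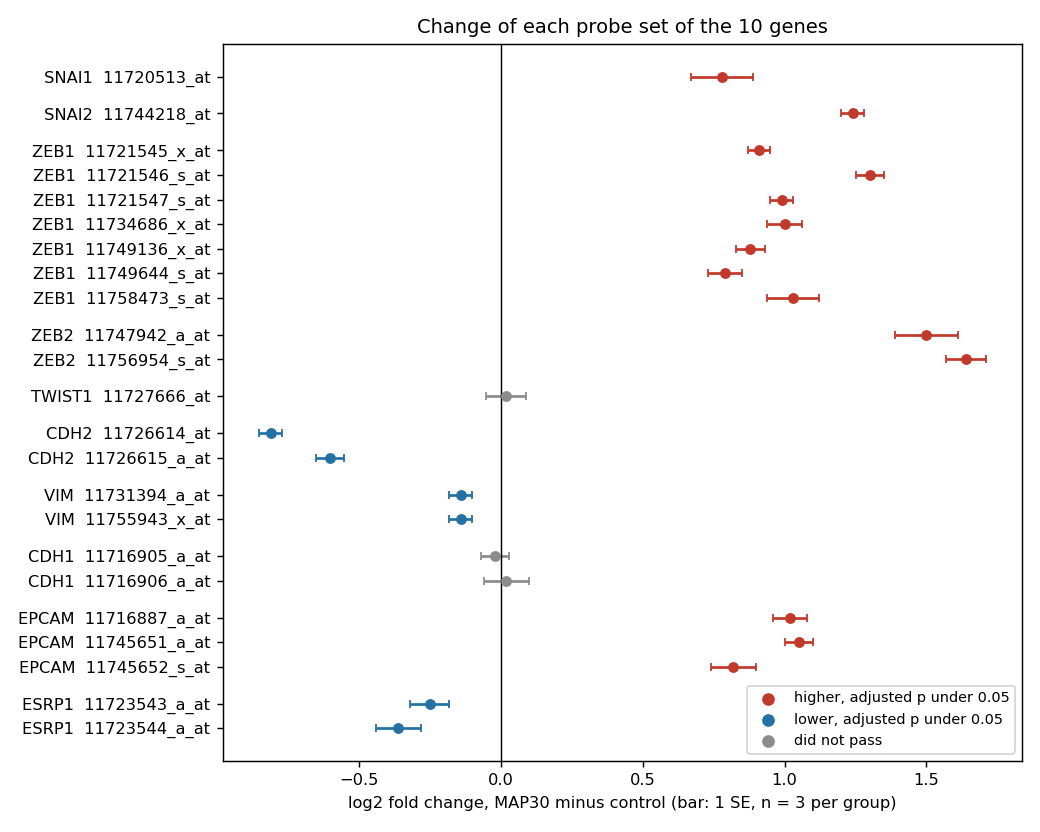
Log2 fold change of MAP30 minus control for each of the 23 probe sets, grouped by gene, with bars of 1 SE (n = 3 per group); red marks calls of higher, blue calls of lower and grey no call. The 14 red points belong to SNAI1, SNAI2, ZEB1, ZEB2 and EPCAM, the 6 blue points to CDH2, VIM and ESRP1, and the 3 grey points to TWIST1 and CDH1.

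By limma over all 49395 probe sets, 14 of the 23 were called higher, 6 lower and 3 not, against a background of 56.3% called, 26.2% as higher and 30.1% as lower. The groups did not overlap in 20 of the 23, and in 61.9% of all probe sets. In no member were probe sets called in opposite directions. Of the 20 probe sets of genes with more than 1, 4 differed from the rest of their gene, against 36% of the 38590 probe sets tested that way. In a gene with 2 probe sets both tests are the same contrast with opposite sign. The 4 calls therefore count the single CDH2 difference under each of its 2 probe sets.

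Differences between members on the same array are free of any shift of a whole array, so centring on controls or on array medians leaves them as they are. Quantile normalization, which is no such shift and was added for the pairs after seeing the data, kept their directions and changed their sizes, CDH1 minus CDH2 to 0.73, EPCAM minus VIM to 1.04 and ESRP1 minus EPCAM to -1.22. The 5 pairs compared were CDH1 minus CDH2, EPCAM minus VIM, ZEB2 minus ZEB1, SNAI2 minus SNAI1 and ESRP1 minus EPCAM. In centred values CDH1 minus CDH2 was 0.34 ± 0.02 in MAP30 and -0.36 ± 0.05 in control arrays (SD, n = 3 each). The centring sets the sign within a group, so these values do not say which of a pair is expressed more. Only the difference between groups can be read, here 0.71, with CDH1 itself at 0.00 and CDH2 at -0.71. EPCAM minus VIM was 0.57 ± 0.04 in MAP30 and -0.53 ± 0.01 in control arrays, a shift of 1.10. In both pairs every MAP30 array lay above every control array, with EPCAM itself at 0.96 and VIM at -0.14. These 2 pairs do not speak for all epithelial members. ESRP1, which was not paired with a mesenchymal gene, was at -0.30, a larger fall than that of VIM and a smaller one than that of CDH2.

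Within each family the measured changes were unequal in size. ZEB2 minus ZEB1 was 0.28 ± 0.08 in MAP30 and -0.30 ± 0.12 in control arrays. The measured rise of ZEB2 was thus larger by 0.58 (0.48 with quantile normalization). SNAI2 minus SNAI1 was 0.21 ± 0.23 in MAP30 and -0.24 ± 0.13 in control arrays, a difference of 0.45 (0.40 with quantile normalization), with the lowest MAP30 array at -0.05 and the highest control array at -0.12. The 2 epithelial genes EPCAM and ESRP1 parted, with ESRP1 minus EPCAM at -0.67 ± 0.07 in MAP30 and 0.59 ± 0.06 in control arrays. The groups were separate for all 5 pairs. Each gave an exact permutation p of 0.1 (two-sided; 0.1 after adjustment over the 5 pairs), the smallest this design can reach, so no pair could pass 0.05.

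**Figure D3:**
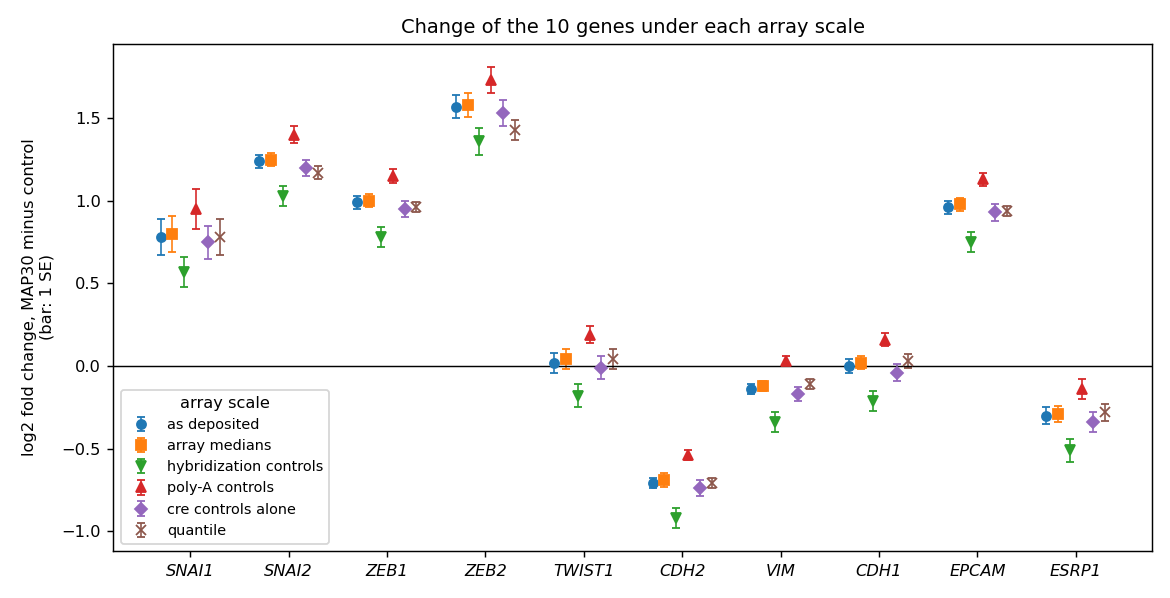
Log2 fold change of MAP30 minus control for the 10 genes with the arrays scaled in 6 ways, with bars of 1 SE. SNAI1, SNAI2, ZEB1, ZEB2 and EPCAM stay above 0 and CDH2 and ESRP1 below 0 in all 6, while TWIST1, VIM and CDH1 change side with the scale.

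To set the members beside their pathway, 12 lists of related genes were counted, with 186 of 197 listed genes measured. Their counts depend on the array scale far more than the larger single changes do. Each count is therefore followed by those on the hybridization-control scale and on the poly-A-control scale. The background moves with the scale too. Of all genes 26.9% were higher and 30.6% lower as deposited. The shares were 17.0% and 63.7% on the hybridization-control scale, and 49.1% and 20.7% on the poly-A-control scale. Among 12 other transcription factors known to promote the transition, 3 were higher and 5 lower (median log2 fold change -0.09). ETS1, an ETS-family activator, rose 3.92-fold (1.97 ± 0.03 SE), and FOSL1, an AP-1 subunit gene, 1.79-fold. TCF3, which encodes the E2A proteins that pair with TWIST1, was 2.36-fold lower, and SOX9 1.88-fold lower. On the hybridization-control scale 2 were higher and 9 lower, and 4 and 4 on the poly-A-control scale.

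Of 14 epithelial transcription factor genes, 5 were higher and 1 was lower (median 0.08). The Krüppel-like factor genes KLF5 and KLF4 rose 5.86-fold and 3.02-fold, the urothelial regulator gene GATA3 4.36-fold and the grainyhead gene GRHL1 1.81-fold. GRHL2 (0.03), OVOL1 (0.09) and OVOL2 (0.08), which encode opponents of ZEB1, did not pass. Without MAP30 replicate 1 the number lower was 2. These counts became 4 and 5 on the hybridization-control scale and 10 and 0 on the poly-A-control scale.

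SNAIL, SLUG and TWIST proteins are short-lived, and 15 genes of their turnover and their partners were measured. Of these 7 were higher and 5 lower (median 0.02). LATS2, a Hippo pathway kinase gene, rose 2.55-fold. The ID genes, whose proteins sequester the partners of TWIST1, went apart: ID2 rose 4.73-fold, while ID1 was 4.82-fold and ID3 2.34-fold lower. These counts became 7 and 8 on the hybridization-control scale and 8 and 5 on the poly-A-control scale.

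The corepressors and chromatin partners of ZEB and SNAIL proteins were mostly lower, at 12 of 16, with 3 higher and a median of -0.48, against -0.02 for all genes. CTBP1, which encodes the corepressor that ZEB proteins recruit, was 2.00-fold lower (SE 0.03 on the log2 scale; limma adjusted p = 1.54e-07), SIN3A, an HDAC scaffold gene, 2.26-fold and the histone methyltransferase gene EHMT2 1.81-fold lower. AJUBA, whose LIM protein binds SNAIL, rose 1.92-fold. On the hybridization-control scale 13 were lower and 1 higher, where 63.7% of all genes were lower, and on the poly-A-control scale 10 and 4, where 20.7% were. As deposited, 30.6% of all genes were lower. The genes of the repressors and of several of their corepressors thus moved in opposite directions.

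Of 13 cadherin-catenin partners 4 were higher and 3 lower (median 0.05). PTPN14, a junctional phosphatase gene, rose 3.89-fold and AFDN, which encodes afadin, 1.38-fold, while NECTIN2, a junctional adhesion gene, was 1.82-fold lower. CTNNAL1 rose by 0.30 on the log2 scale, but with hybridization-control centring it was at 0.09 and did not pass. The hybridization-control scale gave 2 higher and 8 lower, the poly-A-control scale 8 and 2. Of 25 tight junction, desmosome and polarity genes 10 were higher and 5 lower (median 0.01). DSC3, a desmosomal cadherin gene, rose 1.89-fold, TJP1, which encodes ZO-1, 1.69-fold and PARD6B, a polarity gene, 1.61-fold, and DSG2, another desmosomal cadherin gene, was 1.68-fold lower. These counts became 8 and 13 on the hybridization-control scale and 15 and 2 on the poly-A-control scale.

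Of 14 epithelial surface and EPCAM-associated genes 4 were higher and 5 lower (median -0.05). AP1M2, which encodes an epithelial sorting adaptor, rose 1.49-fold and FHL2, which encodes a partner of the cleaved EPCAM tail, 1.39-fold. SPINT2, a protease inhibitor gene, was 2.08-fold and the tetraspanin gene CD9 1.86-fold lower. CLDN7, whose product binds EPCAM, was at 0.01 and did not pass. The number lower was 3 without MAP30 replicate 3 or control replicate 3, and with the replicate block or quantile normalization. These counts became 2 and 8 on the hybridization-control scale and 6 and 2 on the poly-A-control scale.

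Among 11 other regulators of epithelial and mesenchymal splicing, 4 were higher and 2 lower (median 0.07). MBNL2 rose 2.62-fold and QKI, which encodes a regulator active in mesenchymal cells, 1.29-fold. SRSF1 and HNRNPM were each 1.40-fold lower. ESRP2, the close relative of ESRP1, was at 0.03 and did not pass. The hybridization-control scale gave 2 higher and 6 lower, the poly-A-control scale 9 and 2. Of 4 measured transcripts known to be spliced by ESRP proteins 0 were higher and 2 lower, ENAH by -0.14 and ARHGEF11 by -0.17, and both lost their calls with poly-A-control centring, where ENAH turned to 0.02. ENAH also lost its call without control replicate 1 (adjusted p = 0.0617) and with the median over probe sets (0.0619), and ARHGEF11 without control replicate 3 (0.0613), so that each of these settings left 1 gene lower. The hybridization-control scale gave 0 higher and 4 lower, the poly-A-control scale 2 and 0. CD44 (-0.01) had 3 of 10 probe sets higher and 2 lower, and FGFR2 (-0.02) 1 of 12 higher and 2 lower. The median of these 4 genes was -0.08.

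TGF-beta signalling, a main inducer of SNAIL and ZEB genes, was represented by 23 genes, of which 8 were higher and 11 lower (median -0.10). SKIL, which encodes the feedback inhibitor SnoN, rose 2.99-fold, BAMBI, a decoy receptor gene, 2.66-fold and the activin subunit gene INHBA 2.12-fold. SKI, a SMAD corepressor gene related to SKIL, was 2.01-fold lower. These counts became 6 and 14 on the hybridization-control scale and 10 and 7 on the poly-A-control scale.

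Of 20 mesenchymal secreted and matrix genes, 10 were lower, 3 were higher and 7 did not pass (median -0.13). The collagen crosslinking enzyme genes LOXL2 and LOX were lower, LOXL2 by 3.63-fold and LOX by a log2 fold change of -1.32, and FSTL1, a secreted glycoprotein gene, was 2.43-fold lower. FN1, which encodes fibronectin and is named here after its values were seen, was 2.07-fold lower in the mean of 8 probe sets, all 8 of them called lower. TNC, the tenascin C gene, rose 2.08-fold. On the hybridization-control scale 17 were lower and 2 higher, and 9 and 9 on the poly-A-control scale. Of 21 mesenchymal cytoskeleton and surface genes 6 were higher and 7 lower (median -0.05). TAGLN, which encodes the actin-binding transgelin, rose 1.64-fold and the integrin gene ITGA5 1.38-fold. MSN, which encodes moesin, was 1.45-fold and ITGB1 1.33-fold lower. The hybridization-control scale gave 2 higher and 15 lower, the poly-A-control scale 9 and 5.

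**Figure D4:**
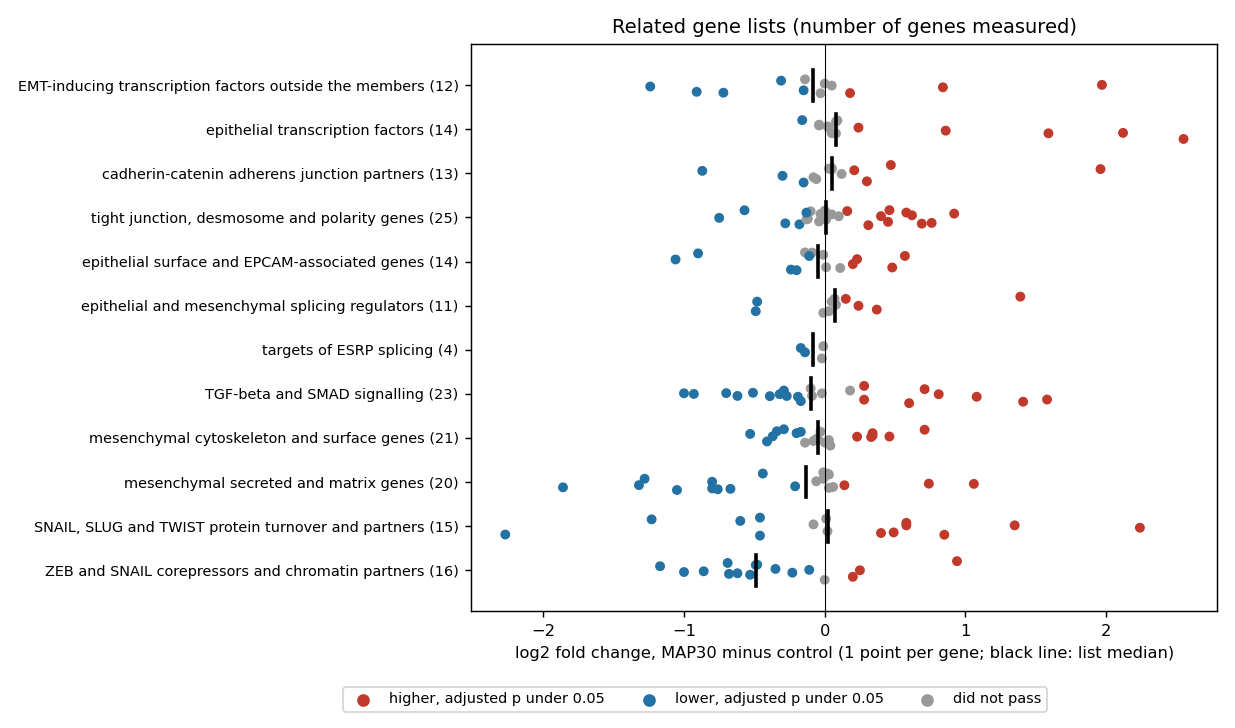
Log2 fold change of MAP30 minus control for every measured gene of the 12 related lists, 1 point per gene, with the list median as a black line; red marks calls of higher, blue of lower and grey no call. The other 11 medians lie between -0.13 and 0.08, and that of the ZEB and SNAIL corepressors lies at -0.48.

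Markers of other cell types moved beside the members as follows, and their part in the results was not tested. In a culture, fewer cells of a kind and less RNA per cell cannot be told apart. Of 7 fibroblast markers 1 was higher and 0 were lower (median 0.03), and none was higher without MAP30 replicate 2 or 3 or control replicate 1 or 2. Of 6 endothelial markers 3 were higher and 0 lower (median 0.10), and 1 was higher when any array other than MAP30 replicate 2 was left out. Of 7 leukocyte markers 4 were higher and 1 lower (median 0.11), and of 11 urothelial markers 2 were higher and 2 lower (median 0.00). On the hybridization-control scale the higher and lower counts were 0 and 6 for fibroblasts, 1 and 3 for endothelium, 3 and 3 for leukocytes and 2 and 7 for urothelium. On the poly-A-control scale they were 6 and 0, 6 and 0, 6 and 0, and 5 and 2, in the same order. Of all genes, 17.0% were higher and 63.7% lower on the first of these scales, and 49.1% and 20.7% on the second. As deposited the shares were 26.9% and 30.6%. With cre-control centring 1 endothelial and 0 fibroblast markers were higher.

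The summed centred values of the fibroblast markers overlapped between groups, at -0.02 to 0.16 in MAP30 and -0.23 to 0.05 in control arrays. The other sums were separate but rested on a few genes. The leukocyte sum, at 2.19 to 2.26 in MAP30 and -2.55 to -1.90 in control arrays, held ITGAM with a log2 fold change of 2.76 and LCP1 with 1.40. CD68 (0.45) and MS4A1 (0.11) were also higher and CD14 (-0.26) was lower, while PTPRC (0.03) and CD3E (0.00) did not pass. The endothelial sum, at 0.94 to 1.62 in MAP30 and -1.13 to -1.08 in control arrays, held ROBO4 with 2.01. KDR (0.22) and TEK (0.14) were also higher, while PECAM1 (-0.03), CDH5 (0.00) and VWF (0.05) did not pass. The urothelial sum, at 0.36 to 0.89 in MAP30 and -1.06 to -0.68 in control arrays, held GATA3 with 2.12 and PPARG with 0.91, against KRT7 with -1.03 and KRT8 with -0.47. These sums therefore do not describe a class as a whole. The marker genes named here were chosen after their values were seen. Which of these markers are absent from T24 cells cannot be seen in centred values.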

How the data were processed

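RNA was copied with a 3' in vitro transcription kit, labelled with biotin and hybridized to 6 Affymetrix arrays, per the labels' protocols. The authors deposited log2 values, centred on each probe set's median; the base of the logarithm is not stated and was read as 2. RMA and MAS5 appear in the submitters' processing notes, with neither role nor version. Genes were named from the platform annotation, and 44988 probe sets had exactly 1 gene. For arrays, their number limits the precision.

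A gene was the mean over its probe sets. MAP30 and control were compared with limma (version 3.58.1, R 4.3.3; lmFit, eBayes, two-sided, Benjamini-Hochberg adjustment over all features, threshold 0.05). A further fit used each probe set minus the mean of the others of its gene. Pairs of members were tested by exact permutation (scipy 1.17.1). The fits were tested on simulated noise with 50 features changed at each size, a far smaller share than the 57.5% of genes called here. Changes of 1.25-fold were recovered in 54% of genes, 28% of probe sets and 32% of differences within genes. At 2-fold the shares were 100%, 94% and 98%.

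The members and lists were chosen with earlier results of these data known. From each list the text names up to 4 called genes with the largest change and separate groups, and every gene of a list of which 5 or fewer passed. FN1, GRHL2, OVOL1, OVOL2, CLDN7 and ESRP2 fall outside this rule and were chosen after their values were seen. Alternatives were other array scales, robust variance, the replicate block, each array left out, the median over probe sets, and probe sets of class _at or _a_at. Centring on cre controls was added after seeing the data. Dim genes could not be filtered, since centred values hold no level.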

Additional observations from a re-analysis of the deposited data

How the results depend on the processing

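Under 15 alternative settings, SNAI1, SNAI2, ZEB1, ZEB2, EPCAM and CDH2 kept their direction and their call in each that gave a value; ZEB1 has none when only classes _at and _a_at are kept, where 4 members were called higher. The other 4 members depended on the array scale. With hybridization-control centring 5 members were called lower (CDH1 at -0.21 and TWIST1 at -0.18 joined; probe set 11716906_a_at of CDH1 was at -0.19), and with poly-A-control centring 1 was (VIM at 0.03, as were both its probe sets, and ESRP1 at -0.14 did not pass; probe set 11716905_a_at of CDH1 turned to 0.15). With cre controls alone, a setting chosen after seeing the data, CDH1 was at -0.04, its probe set 11716906_a_at at -0.02 and TWIST1 at -0.01. Probe set 11716905_a_at of CDH1 turned from -0.02 to 0.00 with array medians and with quantile normalization. Leaving out each array in turn gave CDH1 -0.02 to 0.03 (its probe sets -0.04 to 0.01 and -0.05 to 0.07) and TWIST1 -0.04 to 0.06. Turns on control-based and median scales follow from the shift of the whole array that these apply by construction; the cause of the other turns was not tested. Among 47 named genes of the lists, 44 kept direction and call in each setting that gave a value. CTNNAL1, ENAH (0.02 with poly-A-control centring) and ARHGEF11 did not keep both. Genes called higher over the whole table were 3087 on the hybridization-control scale, 8906 on the poly-A-control scale and 4878 as deposited, and genes called lower 11558 on the first and 5553 as deposited. Probe sets called higher were 8600 on the first and 21655 on the second scale, and 28580 were called lower on the first. Deviations of same-numbered arrays correlated at -0.04, 0.07 and 0.01, and those of arrays with unlike numbers at -0.126 to 0.113. So few arrays cannot settle whether same-numbered ones were paired. Keeping only classes _at and _a_at gave 4 turnover genes higher (7 otherwise) and 4 cytoskeleton genes lower (7 otherwise). Among markers it gave 1 leukocyte gene higher and 0 lower and 1 urothelial gene lower. Genes without a probe set of these classes have no value there, among them the turnover gene ID2, so these counts cover fewer genes. The replicate block changed no call of a member gene (10321 genes called, 10431 without it), but ended those of both VIM probe sets (-0.14 each) and the difference between the CDH2 probe sets. The intensity of each probe set over background, which would bound the dim ones, is lost in centred values.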
